A study of Rattus norvegicus with 18 samples.

Results

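Heat shock chaperones are the proteins that help other proteins reach and keep their folded state. Of their genes 10 are described here across rat cells labelled as oligodendrocyte progenitor cells (OPCs). OPCs are the dividing precursors of the myelin-forming cells of the central nervous system. The genes were taken by symbol from the deposited transcript tables: Hspa1a, Hspa1b, Hspa8 and Hspa5 of the HSP70 family, Hsp90aa1 and Hsp90ab1 of the HSP90 family, the small heat shock protein Hspb1, the J-domain protein Dnajb1, and the mitochondrial chaperonin Hspd1 with its partner Hspe1. They are 10 of the 17337 genes in the tables, and all 10 passed the filter on low values that left 15144 genes for testing.

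The study asked how the stiffness of the surroundings relates to the ageing of these progenitors, and measured total RNA of sorted cells by paired-end sequencing. The 18 libraries form 6 groups of 3: aged OPCs on soft hydrogel, aged OPCs on stiff hydrogel, primary aged OPCs, neonate OPCs on soft hydrogel, neonate OPCs on stiff hydrogel, and primary neonate OPCs. All were sorted with magnetic beads, and the gels were coated with laminin. The labels repeat FGF and PDGF in the growth text of every sample, primary ones included, and give the age of the primary libraries only as the letter of the title. They do not give the age in weeks, the gel stiffness as a number or the time in culture. No label ties a library to an animal or a culture, so the p-values measure the spread between the 3 libraries of a group, and that spread may be technical.

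HSP70 proteins bind short stretches of unfolded protein in cycles of ATP hydrolysis that J-domain proteins such as Dnajb1 start and nucleotide exchange factors complete. HSP90 acts later on partly folded clients, small heat shock proteins such as Hspb1 hold unfolded proteins without using ATP, and the Hspd1 and Hspe1 ring encloses proteins inside mitochondria. Some of these genes are constitutive (Hspa8, Hsp90ab1), some are induced by heat and other stress through the heat shock factor HSF1 (Hspa1a, Hspa1b, Dnajb1, Hspb1, Hsp90aa1), and Hspa5, which encodes the BiP protein of the endoplasmic reticulum (ER), is induced when unfolded protein builds up there.

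HSF1 binds inverted repeats of GAA, so promoter stretches of these genes are printed where a script found such repeats, along with the ER stress response element in Hspa5. The windows run from 250 bases before to 50 bases after each gene's start in the RefSeq annotation of the GRCr8 assembly, and 8 of the 10 genes had one. The letters searched on both strands were GAANNTTC or TTCNNGAA for a pair of units, GAANNTTCNNGAA or TTCNNGAANNTTC for a longer run, which always contains the pair, and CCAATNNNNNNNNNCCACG or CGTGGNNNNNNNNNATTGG for the ER element. Of 33469 windows of all genes, 15.9% held the pair, 0.798% the longer run and 0.0657% the ER element. Capitals mark the matches, and each stretch reads in the direction of its gene.
Hspa8, chr8:50080289-50080325, plus strand: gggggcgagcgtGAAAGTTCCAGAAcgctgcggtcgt
Hspa8, chr8:50080447-50080483, plus strand: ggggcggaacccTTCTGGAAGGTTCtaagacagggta
Hspe1, chr9:64084256-64084285, plus strand: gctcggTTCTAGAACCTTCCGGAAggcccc
Hspb1, chr12:26432391-26432442, minus strand: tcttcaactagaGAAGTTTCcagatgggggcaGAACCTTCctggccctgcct
Dnajb1, chr19:41431142-41431182, minus strand: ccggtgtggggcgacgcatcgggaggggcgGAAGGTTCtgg
Hspa5, chr3:38452961-38453003, plus strand: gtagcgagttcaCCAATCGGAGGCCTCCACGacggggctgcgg

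The longer run was found in 3 of the 8 windows, those of Hspa8, Hspe1 and Hspd1. The Hspe1 stretch also lies in the window of Hspd1, because these 2 genes start next to each other on opposite strands. The pair alone was found in Hspb1 and Dnajb1. The windows of Hspa1a and Hsp90ab1 held none of these letters. A match describes the letters of the window and is not a measured binding site.

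Levels are given as scaled TPM: the length-corrected TPM of the deposited tables, summed over the transcripts of a gene and divided by a library factor computed from 1644 genes present in all libraries. TPM is per transcript length as annotated. That length holds least for Hspa1a, which has 1649 of its 4056 bases uncovered in all libraries, and Hspa8 sums 3 places of the genome, so orders and ratios between genes rest on these annotations. The libraries were shallow. The coverage in the files corresponded to 33939 to 141883 exonic read pairs per library, of which 65 to 427, with a median of 172, fell on the 10 chaperone genes. One read pair was worth 8.41 to 39.5 scaled TPM for Hspe1, 5.01 to 23.5 for Hspb1 and 0.753 to 3.53 for Hspa1b, so a 0 for a short gene is a weak statement, and a gene without coverage is called listed at 0. Libraries also stood apart within groups: replicate 1 of each aged group had coverage on 54.7% to 77.2% of 1197 olfactory receptor genes, against 0.251% to 39.2% in the other 15 libraries, and differences of single chaperone genes that involve aged cells, and were called or had groups that did not overlap, are also given without these 3 broad libraries. Each of the 8 OPC markers was detected in at least 1 library of every group, with summed levels of 307 to 641 scaled TPM on soft gels, 75.1 to 429 on stiff gels and 86.2 to 185 in primary aged cells, against 1256 to 1558, 891 to 1649 and 766 to 867 in the matching neonate groups. In primary aged cells Pdgfra had 15.9, 0 and 0 scaled TPM, so its detection there rested on the broad replicate 1.

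Over the 18 libraries 4 of the 10 genes had medians of at least 167 scaled TPM and the other 6 of at most 26.6, with ranges that overlapped between the 4 and the 6. Hsp90ab1 had the highest median at 273 scaled TPM, followed by Hspe1 at 219.8, Hspa8 at 176 and Hspa5 at 167. The ranges of these 4 neighbours overlapped, from 57.3 to 476 for Hsp90ab1, 66.5 to 557 for Hspe1, 72.5 to 236 for Hspa8 and 120.5 to 525 for Hspa5. The next gene, Dnajb1, had a median of 26.6 and a highest value of 95, below every Hspa5 value but above the lowest values of Hsp90ab1, Hspe1 and Hspa8. The highest values of Hspa1b, 195, and Hspb1, 168.7, were above the lowest value of each of the 4. Below it stood Hspb1 with a median of 16.3, Hsp90aa1 with 12.6, Hspd1 with 10.5, Hspa1b with 5.11 and Hspa1a with 0, and the ranges of all these neighbours overlapped. Hspa1a was listed at 0 in 10 libraries, Hspb1 in 7, Dnajb1, Hsp90aa1 and Hspa1b in 2 each and Hspd1 in 1. The chaperone with the highest level was Hspa5 in all 3 primary aged libraries and in replicate 1 of aged cells on soft gels, and Hsp90ab1 or Hspe1 in the other 14 libraries.

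**Figure D1:**
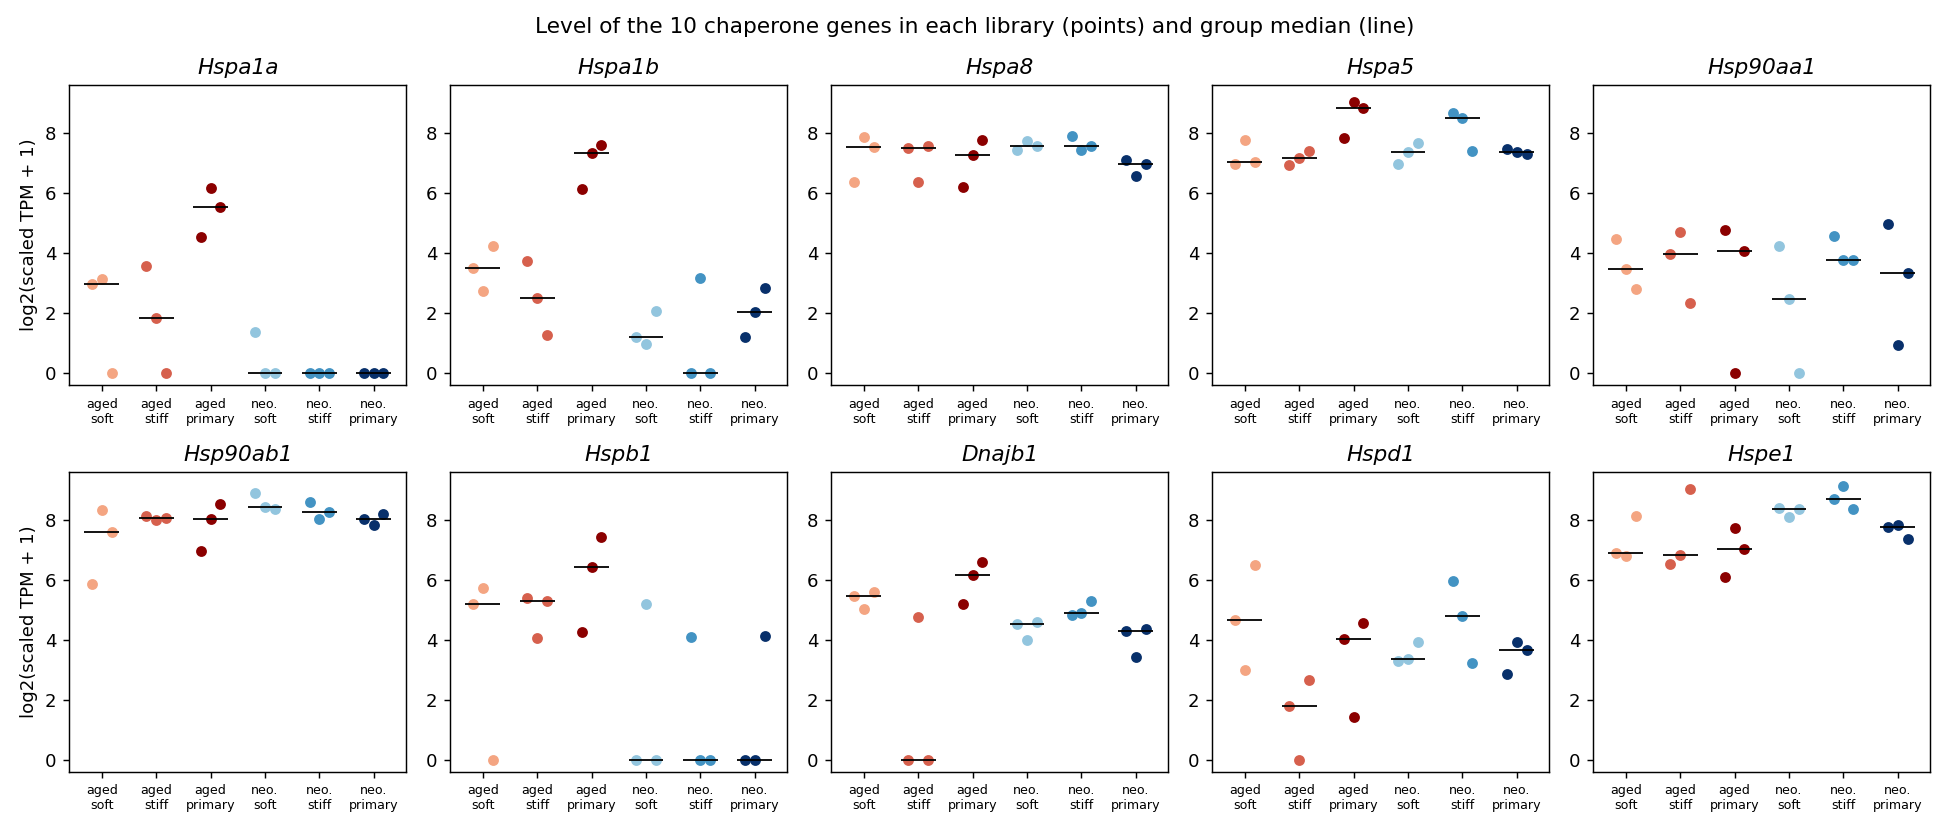
Level of each chaperone gene in every library, as log2(scaled TPM + 1), with 1 point per library, a line at each group median and neonate written as neo. The 3 primary aged libraries stand above all 15 others for Hspa1b (68.4 to 195 scaled TPM, against at most 17.6) and Hspa1a (22.0 to 70.6, against at most 10.9), and no such separation from all other groups is seen for the other 8 genes.

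Hspa1a and Hspa1b, the stress-inducible HSP70 genes of chromosome 20, encode nearly identical proteins. Hspa1a had 6.90, 7.79 and 0 scaled TPM on soft gels, 10.9, 2.53 and 0 on stiff gels and 22.0, 70.6 and 45.1 in primary cells of aged animals. In neonate cells it had 1.61, 0 and 0 on soft gels and was listed at 0 in all 3 libraries on stiff gels and all 3 of primary cells. The primary aged libraries were thus the highest, and their range met no other group's.

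Hspa1b had 10.3, 5.59 and 17.6 scaled TPM on soft gels, 12.2, 4.62 and 1.40 on stiff gels and 68.4, 160.9 and 195 in primary aged cells. In neonate cells it had 1.32, 0.933 and 3.21 on soft gels, 0, 8.01 and 0 on stiff gels and 1.3, 3.11 and 6.12 in primary cells. Again the 3 primary aged libraries were above all others, while aged and neonate cells on gels overlapped. Read together, because reads can be shared between such close copies, the pair summed to 187 ± 84.1 scaled TPM in primary aged cells, against 3.51 ± 2.43 in primary neonate cells (SD, n = 3 each). The sum reached 23.1 at most in the 15 libraries of the other groups.

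The reads behind the pair lay in particular places. In the rn6 coordinates of the files, Hspa1b is a single exon at chr20:4875834-4881751 on the minus strand, with 5918 bases, and lies inside the span of RT1-CE14 on the same strand. Hspa1a is at chr20:4955668-4959762 on the minus strand, drawn as 6 aligned blocks of 4056 bases in all, and overlaps Hspa1l, a testis-enriched HSP70 gene, on the opposite strand. RT1-CE14 had 5.64, 5.25 and 10.3 scaled TPM in primary aged cells and was listed at 0 in all 3 primary neonate libraries. Hspa1l had 3.62, 5.87 and 5.66 scaled TPM in primary aged cells and 3.74, 3.65 and 5.77 in primary neonate cells. Counting did not use strand, so reads of Hspa1a and Hspa1l over shared bases cannot be told apart.

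**Figure D2:**
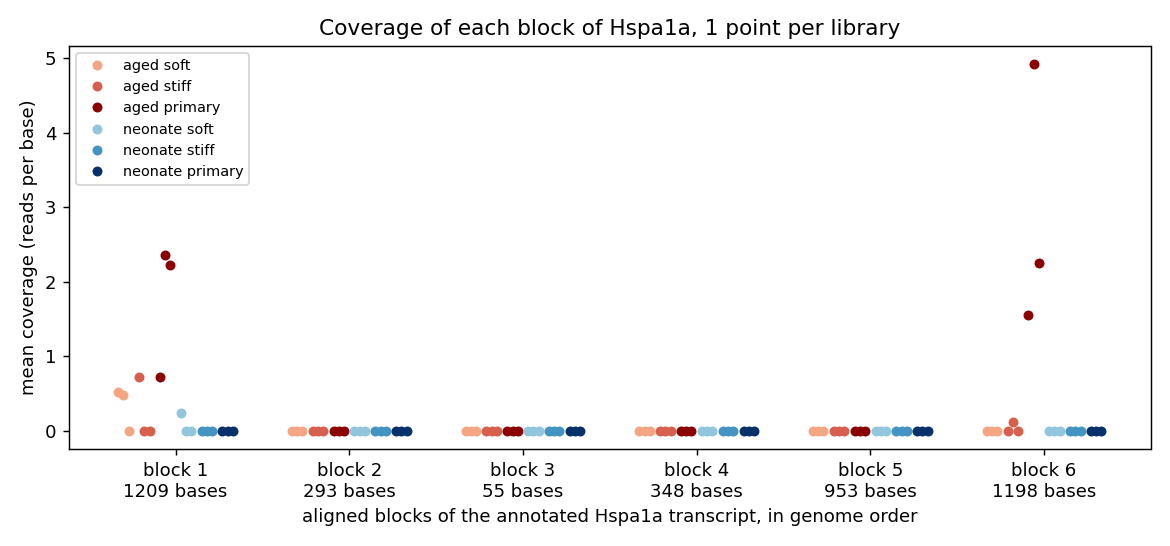
Mean coverage in reads per base of the 6 aligned blocks of Hspa1a, in genome order along the horizontal axis, with 1 point per library coloured by group. Block 1 was covered in 7 libraries and block 6 in 4, with the 3 primary aged libraries covered at both, and the 4 inner blocks, with 1649 bases together, were covered in 0 of 18 libraries.

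All coverage of Hspa1a came from its outer blocks, block 1 of 1209 bases in 7 libraries and block 6 of 1198 bases in 4. The 4 blocks between them, 1649 bases, had coverage in 0 of 18 libraries. In primary aged cells block 1 was covered at 0.727, 2.36 and 2.23 reads per base in Hspa1a and block 6 at 1.56, 4.92 and 2.26, while all 6 blocks of Hspa1a were at 0 in primary neonate cells. The sum of both genes is therefore given beside each of them.

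Between primary aged and primary neonate cells, 2 of the 10 chaperone genes were called, both higher in aged cells, where 1.94% of all genes tested were called higher and 0.66% lower (limma, adjusted p under 0.05). These 2 were Hspa1a and Hspa1b. Hspb1, Dnajb1 and Hspa5 had groups that did not overlap but missed the threshold. The median difference over the 10 genes was 0.69 on the log2(scaled TPM + 1) scale, and that over all genes was also 0.69. The median of all genes depended on replicate 1 of the primary aged cells: it was 0.00 without that library and without all 3 broad libraries.

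Hspa1b rose in primary aged cells by 5.0 ± 1.01 on the log2(scaled TPM + 1) scale (SE, limma adjusted p = 0.00557, 95% interval 2.92 to 7.08). Hspa1a, with all 3 primary neonate libraries at 0, rose by 5.40 ± 1.17 (SE, limma adjusted p = 0.00984), a value that depends on the 1 added before the logarithm. The pair taken as 1 gene rose by 5.41 ± 1.0 (SE, limma adjusted p = 0.00248, 95% interval 3.36 to 7.46). Relative to the median of all genes, which was also 0.01 after quantile normalization, Hspa1a stood 4.71 higher and Hspa1b 4.31 higher. Without the 3 broad libraries Hspa1a rose by 5.89 (adjusted p = 0.0045) and Hspa1b by 5.48 (adjusted p = 0.00992). The Hspa1a call was lost without primary aged replicate 2 (5.05, limma adjusted p = 0.0535), and both calls were lost with a pseudocount of 0.1 (8.69 and 5.41, limma adjusted p = 0.0569 and 0.101).

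**Figure D3:**
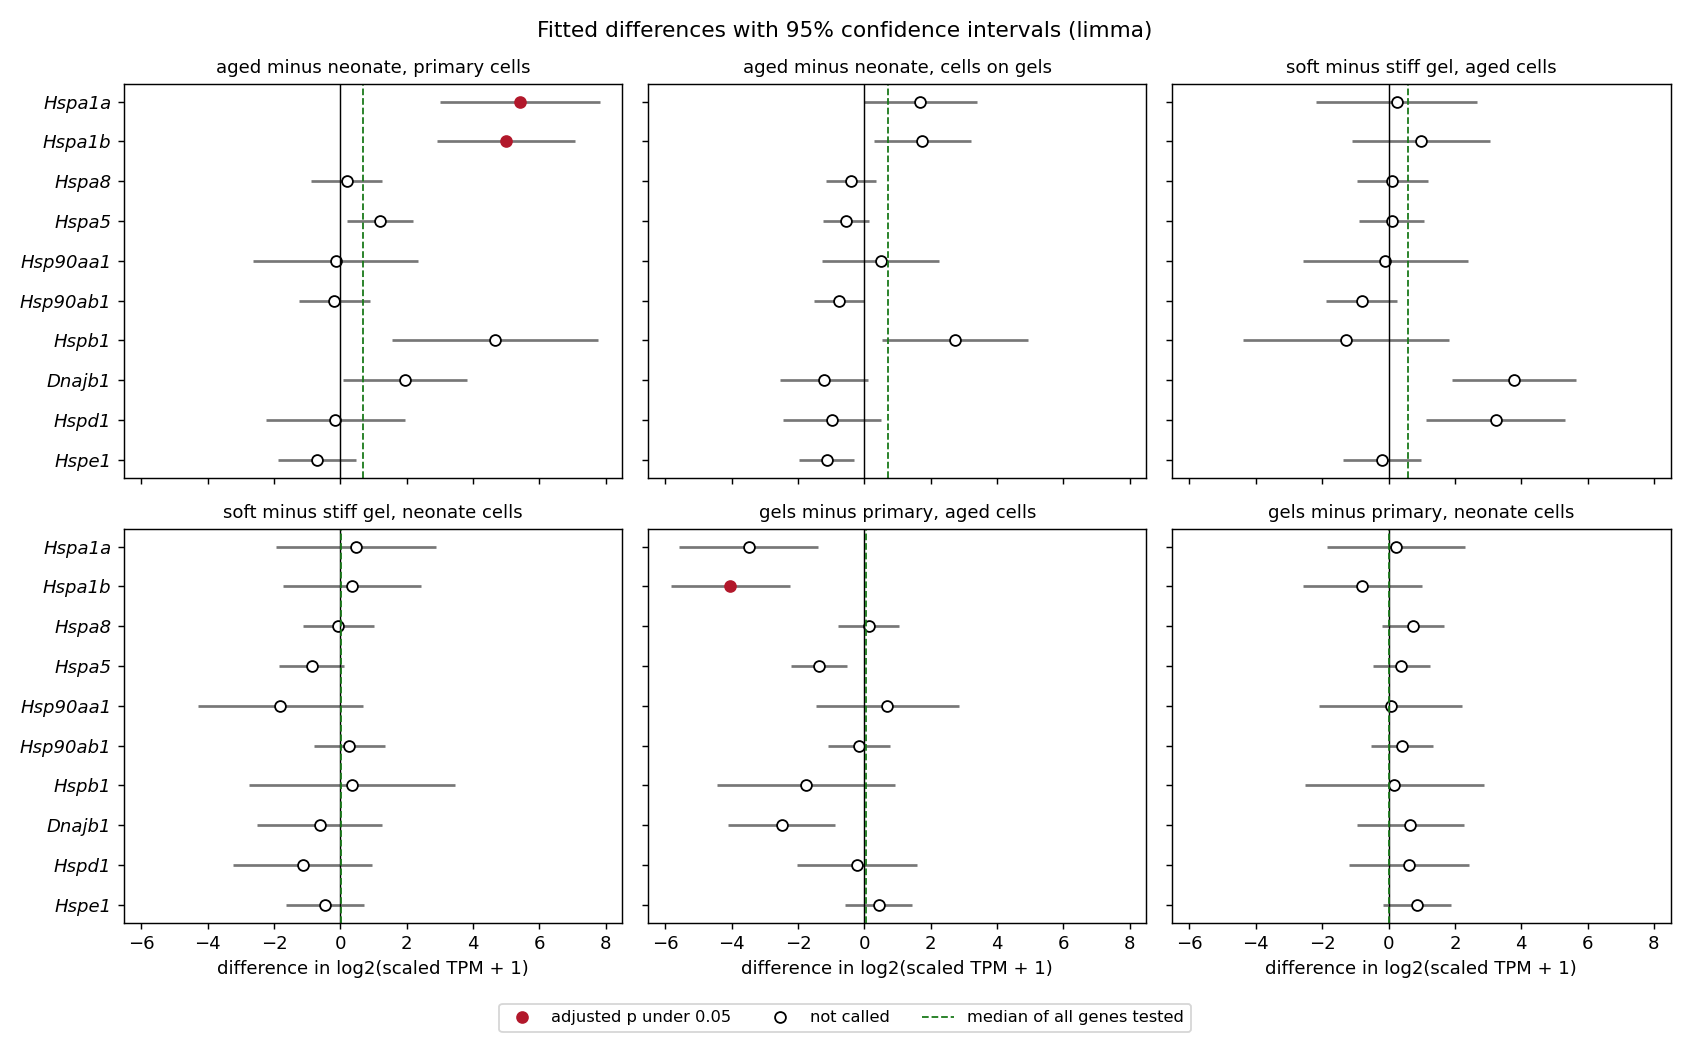
Fitted difference for each chaperone gene in 6 comparisons, as a difference in log2(scaled TPM + 1) with its 95% confidence interval from limma. Filled points passed the adjusted threshold, Hspa1a and Hspa1b between ages in primary cells and Hspa1b between gels and primary cells of aged animals, and the dashed line is the median of all genes tested.

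The other genes with separate primary groups were less certain. In all, 5 of the 10 had every primary aged library above every primary neonate library, where 11.1% of all genes did, and 0 had the opposite order, where 4.97% did. Hspb1, which holds unfolded proteins and binds actin, had 18.1, 85.7 and 168.7 scaled TPM in primary aged cells, against 0, 0 and 16.4 in primary neonate cells. The difference was 4.66 ± 1.51 (SE, limma adjusted p = 0.112). Its lowest aged value, in the broad replicate 1, was just above its highest neonate value, and these rest on 1.65 and 1.68 read pairs.

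Dnajb1, the J-domain partner of HSP70, had 35.3, 70.2 and 95 scaled TPM in primary aged cells, against 18.6, 9.64 and 19.7 in primary neonate cells. Each aged library lay above each neonate one, and the difference of 1.95 ± 0.91 did not pass (SE, limma adjusted p = 0.363). Hspa5 had 224.9, 525 and 458.6 scaled TPM in primary aged cells, against 176, 163 and 157 in primary neonate cells. The Hspa5 groups were also apart, with a difference of 1.19 ± 0.48 (SE, limma adjusted p = 0.256) that lay 0.50 above the median of all genes. Without the 3 broad libraries, where that median was 0.00, the differences were 5.59 for Hspb1 (limma adjusted p = 0.105), 2.36 for Dnajb1 (limma adjusted p = 0.223) and 1.58 for Hspa5 (limma adjusted p = 0.0609). With weights for each library (limma array weights) all 3 of these genes passed, Hspb1 at an adjusted p of 0.0242, Dnajb1 at 0.0456 and Hspa5 at 0.0185. With voom on read equivalents Hspb1 and Hspa5 passed, at limma adjusted p = 0.014 and 0.0137. Both settings also called more of the 15144 genes, 758 higher and 407 lower with array weights and 750 and 227 with voom. In the fit used above 294 were called higher and 100 lower.

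The constitutive and the mitochondrial genes showed no call between the ages of primary cells. Hspa8, the constitutive HSP70 of the cytosol, had 72.5, 151.8 and 215.3 scaled TPM in primary aged cells, against 135.6, 94.4 and 123 in primary neonate cells. Aged libraries lay on both sides of the neonate ones, and the interval of the difference ran from -0.88 to 1.27. Hsp90ab1, the constitutive HSP90, had 122.3, 258.7 and 367.9 scaled TPM in primary aged cells, against 257.6, 222.9 and 293.7 in primary neonate cells. Those groups overlapped as well, with an interval of -1.25 to 0.90. Hsp90aa1, the inducible HSP90, had 25.9, 0 and 15.6 scaled TPM in primary aged cells, against 30.5, 0.894 and 9.03 in primary neonate cells. The spread within each age was wider than any gap between them, and the interval of -2.64 to 2.36 leaves its direction unknown.

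Hspd1, the mitochondrial HSP60 chaperonin, had 15.2, 1.67 and 22.4 scaled TPM in primary aged cells, against 6.19, 14.2 and 11.6 in primary neonate cells. Its partner Hspe1, the lid of the chaperonin, had 66.5, 209.6 and 128.3 scaled TPM in primary aged cells, against 214.6, 224.9 and 163.4 in primary neonate cells. Both overlapped between ages, with intervals of -2.24 to 1.94 for Hspd1 and -1.89 to 0.47 for Hspe1.

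The make-up of the chaperone pool differed between the ages of primary cells in the pair and in other members. In primary aged cells Hspa1a and Hspa1b held 13.5%, 15.1% and 14% of the summed level of the 10 genes, against 0.155%, 0.425% and 0.765% in primary neonate cells. On gels the share of the pair was at most 3.30%, in replicate 1 of aged cells on soft gel. Hspa5 held 26.8% to 34.2% in primary aged cells, against 19.7% to 22.2% in primary neonate cells. In the same order Hsp90ab1 held 16.9% to 21.5% against 30.4% to 36.7%, and Hspe1 7.5% to 13.7% against 20.4% to 30.7%. Hspa8 held 9.9% to 12.6% against 12.9% to 16.1%. A higher share of 1 gene lowers the shares of the others. Set against Hspa8, the constitutive HSP70, the pair came to 124.6%, 152.5% and 111.5% in primary aged cells, and to at most 21.0% in any other library. The summed level of the pair was above that of Hspa8 in the primary aged libraries alone among the 18. These shares and ratios rest on levels of Hspa1a that are spread over uncovered blocks and on an Hspa8 level that sums 3 places, of which the spliced gene took a median of 43.4%. The sum of all 10 genes overlapped between the ages, at 671, 1534 and 1712 scaled TPM in primary aged cells and 841, 733 and 800.3 in primary neonate cells.

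**Figure D4:**
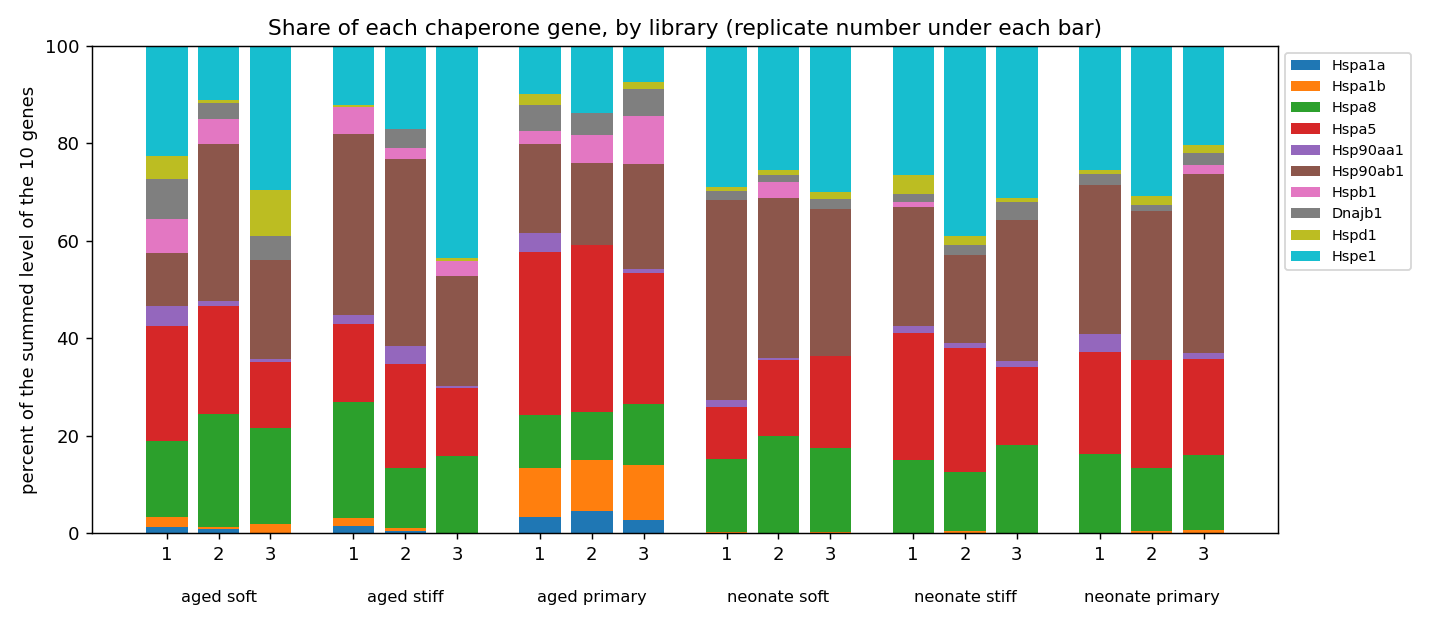
Share of each chaperone gene in the summed level of the 10 genes, in percent of scaled TPM, with 1 bar per library and the replicate number below it. The blue and orange segments at the foot of the bars, Hspa1a and Hspa1b, together take 13.5% to 15.1% in the 3 primary aged libraries and at most 3.30% elsewhere.

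Markers of microglia, the immune cells of the brain, moved with the pair. All 10 microglia markers were called higher in primary aged than in primary neonate cells, with summed levels of 2224 to 3654 scaled TPM, against 111 to 254, and Tmem119 was listed at 0 in all primary neonate libraries. The 8 OPC markers summed to 86.2 to 185 scaled TPM in the same primary aged libraries, below the microglia sum, and to 766 to 867 in primary neonate ones, above it. Of these markers 3 were called lower in primary aged cells, Pdgfra, Olig1 and Ncan. Without the 3 broad libraries 10 of the microglia markers were again called higher and 4 of the OPC markers lower. On gels the microglia sum was 244 to 493 on soft and 134 to 390 on stiff gel in aged cells, and 46.6 to 95.6 on soft and 34.4 to 52.5 on stiff gel in neonate cells. On stiff gel 7 of the 10 markers were at 0 in all neonate libraries, and on soft gel 4 were. Of the lists for other cells, 1 of 8 genes of mature oligodendrocytes (Mog) and 2 of 6 genes of neurons (Dcx and Stmn2) were called lower in primary aged cells, and 0 of 6 astrocyte and 0 of 6 endothelial genes were called there (limma). The part of any of these cells in the chaperone result was not tested. In such bulk samples fewer cells of a type and less RNA per cell cannot be told apart.

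The genes whose pattern over the 18 libraries was most like that of the pair were Ctss (Pearson r = 0.923), Psap (0.899), Cebpa (0.889), Npc2 (0.880) and Sall1 (0.872), the top 5 of 3938 genes ranked. These values are descriptions on the log2(scaled TPM + 1) scale, with n = 18 libraries that share scaling and depth, and the 3 primary aged libraries lie far from the rest. Among the chaperones themselves the values with the pair were 0.52 for Hspb1, 0.39 for Hspa5 and 0.33 for Dnajb1, but -0.09 for Hsp90aa1 and for Hspd1, -0.22 for Hspa8, -0.30 for Hsp90ab1 and -0.60 for Hspe1.

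**Figure D5:**
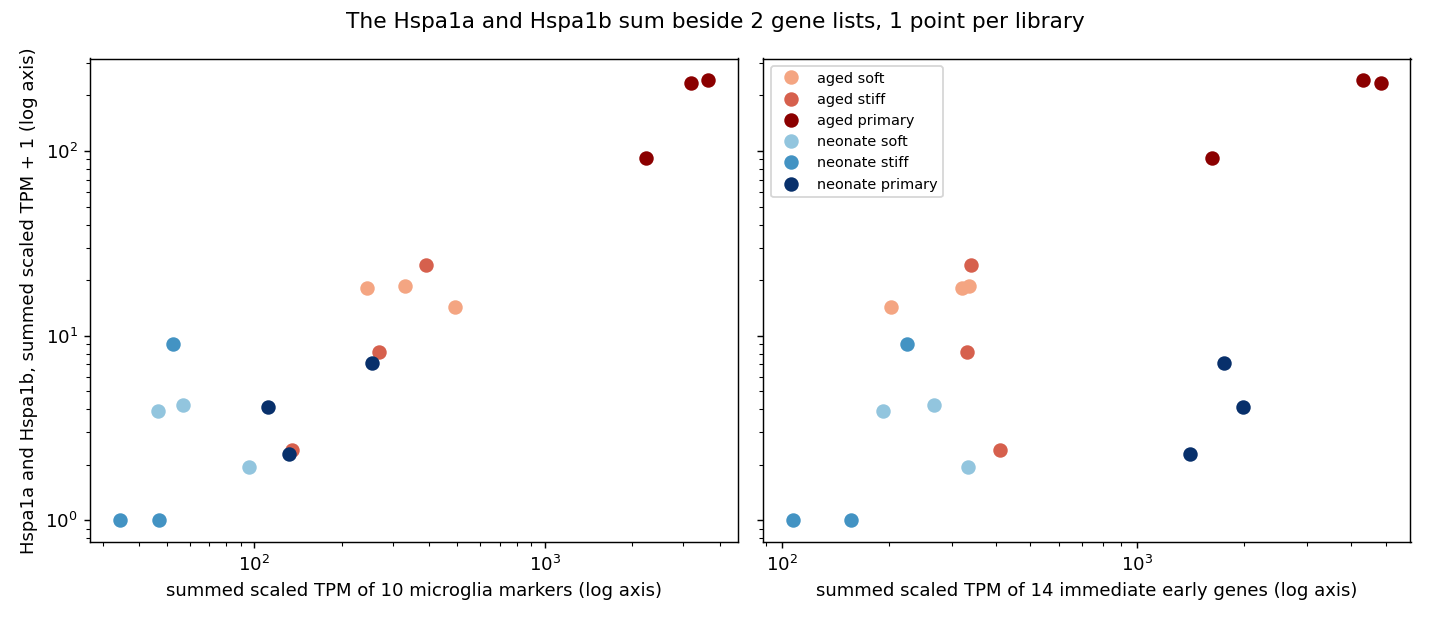
Summed scaled TPM + 1 of Hspa1a and Hspa1b against the summed level of 10 microglia markers (left) and of 14 immediate early genes (right), both on log axes, with 1 point per library. The 3 primary aged libraries lie at the upper right in both panels, and the 3 primary neonate libraries have immediate early sums of 1410 to 1984 but a pair sum of at most 6.12.

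For the culture comparison the 2 gels of an age were averaged and set against its primary cells. In aged cells 1 of the 10 genes was called, lower on gels, where 0.773% of all genes were called lower and 0.337% higher. On gels Hspa1b fell by 4.04 ± 0.88 on the log2(scaled TPM + 1) scale (SE, limma adjusted p = 0.0161), with 1.40 to 17.6 scaled TPM and a median of 7.94 in the 6 gel libraries, against 68.4 to 195 in the 3 primary ones. Hspa1a had a range of 0 to 10.9 and a median of 4.72 on gels, against 22.0 to 70.6 in primary cells, and a difference of -3.48 (limma adjusted p = 0.107). As 1 gene the pair fell by 3.91 ± 0.86 (SE, limma adjusted p = 0.0181). Without the 3 broad libraries both genes passed, at -4.63 for Hspa1a and -4.81 for Hspa1b (limma adjusted p = 0.0255 for each). The Hspa1b call was lost without primary aged replicate 2 (-3.90, limma adjusted p = 0.131) or 3 (-3.75, limma adjusted p = 0.149) and with a pseudocount of 0.1 (-4.27, limma adjusted p = 0.232), and its difference ran from -4.81 to -3.72 over the 32 alternatives.

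Hspa5, the ER chaperone, had 123, 218.3 and 128.4 scaled TPM on soft gels and 120.5, 142 and 166 on stiff gels, against the 224.9 to 525 of primary aged cells given above. All 6 gel libraries lay below all 3 primary ones, and the difference was -1.37 ± 0.42 (SE, limma adjusted p = 0.133), or -1.61 without the 3 broad libraries (limma adjusted p = 0.0664). In this comparison 3 of the 10 genes, Hspa1a, Hspa1b and Hspa5, had the gel libraries wholly below the primary ones, where 2.93% of all genes did. Dnajb1 differed by -2.50 (limma adjusted p = 0.157), its gel libraries ranging from 0 to 47.6 around a median of 28.9 and overlapping with the primary range of 35.3 to 95.

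Immediate early genes, which are transcribed within minutes of a stimulus, also differed between gels and primary cells. Of 14 such genes 6 were called lower on gels in aged cells (Fos, Egr1, Ier2, Zfp36, Jun and Jund), and 2 in neonate cells, Fos and Btg2. Their summed level was 107 to 410 scaled TPM over the 12 gel libraries, against 1628 to 4857 in primary aged cells and 1410 to 1984 in primary neonate cells. Fos alone had 771.5, 2300 and 2116 scaled TPM in primary aged cells and 801, 1108 and 1031 in primary neonate cells. Between those 2 groups 0 of the 14 genes were called. Without the 3 broad libraries 2 of them were called higher in primary aged cells, where 321 of 12370 genes were. The median difference over the 14 genes was 1.44, against 0.69 over all genes, and the summed levels given above overlapped. Whether the 14 genes as a set differed between the ages was not tested. The pair was at 1.3 to 6.12 scaled TPM in the primary neonate libraries, whose summed immediate early level was above that of every gel library. Of the microglia markers 4 were called lower on gels in aged cells, and the part of either list in the fall of Hspa1b was not tested.

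In neonate cells 0 of the 10 genes were called between gels and primary cells, where 0.099% of all genes were called (limma), with 0 at an unadjusted p under 0.05 and 0 by voom. The pair differed by -0.66, with an interval of -2.44 to 1.11. Hspa8 had 173.1, 210.0 and 187.6 scaled TPM on soft and 235.8, 172.9 and 188.5 on stiff gel, all above the 94.4 to 135.6 of primary neonate cells. Hspe1 had 335.5, 268.7 and 325.5 on the soft gel and 416.5, 557 and 324.9 on the stiff one, also all above the 163.4 to 224.9 of primary neonate cells. These 2 of the 10 genes had the gel libraries wholly above the primary ones, where 1.22% of all genes did, with differences of 0.73 for Hspa8 and 0.86 for Hspe1 and limma adjusted p = 1 for each. In the test of whether the culture difference itself differed between ages, 0 of the 10 passed, where 0.112% of all genes did (limma). By voom 2 passed, where 28 of 15144 genes were called higher and 57 lower. At an unadjusted p under 0.05 there were 4, and the share of all genes at that level was not counted in any comparison. Those 4 were Hspa1a, Hspa1b, Hspa5 and Dnajb1, with interactions of -3.71, -3.25, -1.75 and -3.16 and limma adjusted p between 0.571 and 0.706.

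On the gels themselves, with soft and stiff averaged, 0 of the 10 genes were called between aged and neonate cells, where 5.55% of all genes were called (limma). At an unadjusted p under 0.05 there were 4, with no share of all genes to set beside them. By voom 1 of the 10 passed, Hsp90ab1 at -0.76 (adjusted p = 0.0443), where 1424 of 15144 genes were called higher and 324 lower. The median over the 10 genes was -0.48, against 0.71 over all genes, and that of all genes was 0.04 after quantile normalization.

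Hspe1 was nearest the threshold. It had 117.9, 109.4 and 278.1 scaled TPM on soft and 91.7, 112.7 and 519 on stiff gel in aged cells, against 268.7 to 557 with a median of 330.5 in the 6 neonate gel libraries given above. Of the aged libraries 4 lay below every neonate one and 2 did not, with a difference of -1.13 ± 0.41 (SE, limma adjusted p = 0.0952). It passed without replicate 3 of aged cells on stiff gel, the library at 519 (-1.54, limma adjusted p = 0.00838). Without that library 1327 of 15121 genes were called higher and 401 lower, against 575 and 266 of 15144 with it. The Hspe1 difference was -0.80 (limma adjusted p = 0.243) without the 3 broad libraries.

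Hspb1 had 35.7, 51.4 and 0 scaled TPM on soft and 41.2, 15.6 and 38.2 on stiff gel in aged cells, against 0, 35.4 and 0 on the soft gel and 16.2, 0 and 0 on the stiff one in neonate cells. It was listed at 0 in 1 of the 6 aged and 4 of the 6 neonate gel libraries, and differed by 2.73 ± 1.07 (SE, limma adjusted p = 0.126). Without replicate 3 of aged cells on soft gel it passed (3.62, limma adjusted p = 0.0349), where 639 of 14862 genes were called higher and 242 lower. The Hspb1 difference was 2.24 without the 3 broad libraries (limma adjusted p = 0.324). The pair differed by 2.16 ± 0.71 (SE, limma adjusted p = 0.0693), with 1.40 to 23.1 scaled TPM and a median of 15.3 in aged cells, against 0 to 8.01 and a median of 1.93 in neonate cells. Hsp90ab1 had 57.3, 317.4 and 190.4 on the soft gel and 278.4, 254.9 and 267.9 on the stiff one in aged cells, against 476, 344.9 and 326.5 on the soft gel and 383, 260.1 and 302 on the stiff one in neonate cells. Those ranges overlapped, and the difference was -0.76 ± 0.37 (SE, limma adjusted p = 0.208). Of the microglia markers 4 were called higher and of the OPC markers 5 lower in aged cells on gels, and of 14 immediate early genes Atf3 and Klf6 were called higher and Egr1 lower, with differences of 3.71, 2.69 and -3.14. The part of these lists in the chaperone values was not tested.

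Stiffness was compared within each age. In aged cells 0 of the 10 genes were called between soft and stiff gel, where 0.0792% of all genes were called (limma), with 2 at an unadjusted p under 0.05 and 0 by voom. These 2, with no share of all genes at that level to set beside them, were Dnajb1 and Hspd1. Dnajb1 had 43.0, 31.7 and 47.6 scaled TPM on soft gels, against 0, 26.0 and 0 on stiff gels. The 3 soft libraries lay above the 3 stiff ones, and the difference was 3.78 ± 0.91 (SE, limma adjusted p = 0.132). The single stiff library with Dnajb1 coverage, replicate 2, held 2.70 read pairs of it. Without that library the difference was 5.36 (limma adjusted p = 0.00153), where 11 of 15044 genes were called higher and 1 lower. The rest of the stiff group was then at 0. The difference was 2.95 without the 3 broad libraries (limma adjusted p = 0.164).

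Hspd1 had 24.1, 7.05 and 89.3 scaled TPM on soft gels, against 2.5, 0 and 5.25 on stiff gels, again without overlap. Its difference was 3.23 ± 1.02 (SE, limma adjusted p = 0.226), and the soft value nearest the stiff group rested on 0.973 read pairs. Without the 3 broad libraries it was 3.45 (limma adjusted p = 0.184). These were the 2 of 10 genes with soft wholly above stiff, where 6.63% of all genes were, and all genes tested had a median of 0.59 in the same comparison. The other chaperonin gene, Hspe1, overlapped between the gels, with a difference of -0.19 and an interval of -1.37 to 0.98. For the pair the difference was 1.12, with an interval of -0.93 to 3.17.

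In neonate cells 0 of the 10 genes were called between soft and stiff gel, where 0% of all genes were called (limma), with 0 at an unadjusted p under 0.05 and 0 by voom. Dnajb1 had 22.1, 14.8 and 23.4 scaled TPM on soft gels, against 27.2, 28.9 and 37.8 on stiff gels. This was the opposite order to that in aged cells, with a difference of -0.63 (limma adjusted p = 1), and it was the 1 gene of the 10 with soft wholly below stiff, where 2.53% of all genes were. Hspd1 had 8.71, 9.31 and 14.2 scaled TPM on soft gels, against 61.1, 26.4 and 8.38 on stiff gels, with a difference of -1.13. Hspa5 had 124, 164 and 203.3 on soft gels, against 409, 363.8 and 167.5 on stiff gels, with a difference of -0.86. Hsp90aa1, at 17.8, 4.54 and 0 on the soft gel and 22.9, 12.6 and 12.7 on the stiff one, differed by -1.80, and all of these groups other than those of Dnajb1 overlapped.

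In the test of whether the stiffness difference itself differed between ages, 0 of the 10 genes passed, where 0.0066% of all genes did (limma), with 2 at an unadjusted p under 0.05 and 0 by voom. Those were Dnajb1, with an interaction of 4.41 ± 1.29 (SE, limma adjusted p = 0.737), and Hspd1, with 4.37 ± 1.44 (SE, limma adjusted p = 0.762). Here too the share of all genes at that level was not counted. Hsp90aa1 on gels of aged cells had 21.2, 10.2 and 5.92 scaled TPM on soft, against 14.7, 24.9 and 4.09 on stiff gels. Hspa8 there had 81.8, 229.5 and 185.9 on soft, against 178.7, 81.6 and 188.3 on stiff gels. Neither separated the gels.

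Of the wider chaperone network few genes passed. Between primary aged and primary neonate cells 1 of 19 other J-domain proteins and 1 of 7 nucleotide exchange factors tested were called higher. Over all the chaperone lists, 2.15% of 93 genes other than the 10 were called higher and 0% lower, where 1.94% and 0.66% of all genes tested were. Dnajb4, a J-domain partner of HSP70, had 8.30, 83.5 and 51.0 scaled TPM in primary aged cells and was listed at 0 in all 3 primary neonate libraries (difference 5.11 ± 1.27, SE, limma adjusted p = 0.0253). Bag3, which releases clients from HSP70 and steers them to autophagy, had 9.65, 10.4 and 20.5 scaled TPM in primary aged cells and was listed at 0 in all 3 primary neonate libraries (difference 3.79 ± 1.05, SE, limma adjusted p = 0.0478). Both genes were apart between the groups in every library, and with neonate libraries at 0 the size of either difference depends on the 1 added. Without the 3 broad libraries Dnajb4 still passed (6.09, limma adjusted p = 0.0118) and Bag3 did not (4.01, limma adjusted p = 0.054).

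In that comparison 0 genes were called among 11 other HSP70 and HSP110 genes, 14 HSP90 paralogs and cochaperones, 7 other small heat shock proteins, 8 subunits of the CCT chaperonin, 4 heat shock factors and binding proteins, 20 ER chaperone and unfolded protein response genes and 11 mitochondrial chaperones and proteases. Between aged and neonate cells on gels 2 genes of all these lists were called, both lower in aged cells, which is 2.15% of the 93, where 5.55% of all genes tested were called. Hspb8, a small heat shock protein that works with Bag3, had 0.328, 0 and 9.06 scaled TPM on soft and 16.8, 0 and 0 on stiff gels in aged cells, against 6.80, 9.73 and 13.7 on the soft gel and 67.6, 66.8 and 17.4 on the stiff one in neonate cells (difference -3.13 ± 0.89, SE, limma adjusted p = 0.036). Grpel1, the nucleotide exchange factor of the mitochondrial HSP70, had 0, 15.2 and 0.517 scaled TPM on soft and 47.5, 0 and 0 on stiff gels in aged cells, against 4.66, 36.5 and 36.8 on the soft gel and 21.7, 63.3 and 21.3 on the stiff one in neonate cells (difference -2.96 ± 0.89, SE, limma adjusted p = 0.0473). Each was listed at 0 in 3 of the 6 aged gel libraries, and aged and neonate values overlapped. Without the 3 broad libraries both passed, at -3.63 for Hspb8 (limma adjusted p = 0.0155) and -3.52 for Grpel1 (limma adjusted p = 0.0106). In the other 6 comparisons, between gels, between gels and primary cells and in both tests of interaction, 0 genes of these chaperone lists were called. Without the 3 broad libraries 1 J-domain gene was called higher on soft than on stiff gel in aged cells, where 109 of 12370 genes were. On gels against primary aged cells 1 J-domain gene and 1 gene of the mitochondrial list were then called lower, where 162 of 12370 were. Those lists share a gene, so both calls may be the same gene.

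The genomic placing of some members limits what their levels stand for. Hspa8 was counted at 3 places of rn6, the gene of 9 exons at chr8:44989401-44993261 and 2 single-exon copies at chr11:13499164-13501263 and chr6:34553288-34555386, which took medians of 43.4%, 30.8% and 23.7% of its TPM. All 3 had coverage in all 18 libraries. Taking the gene of 9 exons alone changed 0 calls among the 10 members. Hsp90aa1 was counted at 2 places of chromosome 6 with the same exons, chr6:135044841-135050369 and chr6:135107265-135112793, and the first overlaps Dync1h1, a dynein motor gene, on the other strand. Hspd1 (chr9:61680530-61690956, minus strand) and Hspe1 (chr9:61691246-61694102, plus strand) lie head to head without overlap. The remaining members, Hspa5 (chr3:13838304-13842763), Hsp90ab1 (chr9:17817791-17823163), Hspb1 (chr12:23839390-23841051) and Dnajb1 (chr19:24747178-24750919), each had 1 transcript and no overlapping gene in the files.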

How the data were processed

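Total RNA of 18 libraries was read from transcript tables that the authors deposited. Per the file headers the tables were made with StringTie 1.3.2d, limited to annotated transcripts of rn6 with no strand option, although the kit was stranded, and give TPM beside FPKM and coverage. Trimmomatic, HISAT2 and Bowtie also stand in the submitters' processing notes, with neither role nor version. Read pairs were estimated from the deposited coverage times length at 300 bases per pair, and such estimates cover counting error only.

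TPM was summed per gene and divided by median-of-ratios factors. The 15144 genes that reached a TPM of 1 in 3 or more libraries were tested, as log2(scaled TPM + 1) with 6 group means, all 18 libraries and a trend in the variance, in limma 3.58.1 under R 4.3.3, with p adjusted by Benjamini and Hochberg over all of them and a threshold of 0.05. All tests were two-sided. The fit was tested on simulated data first. Besides the 10 members, up to 4 called genes of each list and the 5 genes most like the pair, among those above 0 in at least 12 libraries with a mean of at least 10 scaled TPM, were named. The members and lists were chosen with earlier results of these data known. Dnajc1 and Clpp had no entry under these symbols and were not analysed here. The headers name samples by other numbers than the titles do, so no pairing was read from them. The alternatives tried were a smaller pseudocount (0.1), unscaled TPM, quantile normalization, a filter at a TPM of 5 or none, voom, robust variances, array weights, fits of the compared groups alone, a replicate block, Hspa1a and Hspa1b summed, the 3 broad libraries left out, the level of olfactory receptor genes as a covariate and each library left out. Hspa8 from its spliced place alone was added after seeing the data. Promoter stretches were read from RefSeq windows of GRCr8 in Python 3.11.15. GRCr8 and rn6 coordinates were not converted.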

Additional observations from a re-analysis of the deposited data

How the results depend on the processing

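Over the 32 alternatives run for each result 0 reversed, and 234 counts of members called stayed within 1.5 times while 22 did not. In primary cells of both ages 2 members were called. That count was 0 with a pseudocount of 0.1, 4 with voom, 5 with array weights, and 1 to 2 with single libraries left out, with 1 without primary aged replicate 2. Of all 15144 genes 294 were called higher and 100 lower there. These became 750 and 227 with voom and 758 and 407 with array weights. For gels against primary cells of aged animals the count of 1 became 0 with a pseudocount of 0.1, 3 with voom, 2 with quantile normalization, with array weights, with the 3 broad libraries left out and with the pair summed, where its 1 gene stands for both members, and 0 to 2 with single libraries left out. It was 0 without primary aged replicate 2 or 3, and 2 without replicate 1 or 2 of aged cells on stiff gel. Of all genes 51 were called higher and 117 lower in this comparison. These became 120 and 316 with voom, 72 and 170 with quantile normalization and 66 and 157 with array weights. Between ages on gels the count of 0 became 1 with voom and 0 to 1 with single libraries left out: Hspb1 without aged soft replicate 3, Dnajb1 without aged stiff replicate 2 and Hspe1 without aged stiff replicate 3. Of all genes 575 were called higher and 266 lower there with all libraries. These became 639 and 242, 515 and 215, and 1327 and 401 in those 3 fits, in the same order. Counts of 0 became 1, with Dnajb1, without aged stiff replicate 2 between soft and stiff gel of aged cells and in both interactions, where the range was 0 to 1, and the culture interaction gave 2 with voom. The cause was not tested.

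Hspa1a and Hspa1b stayed past the threshold between ages of primary cells in 30 and 31 of 32 alternatives, and Hspa1b between gels and primary cells in 29. Deviations of samples that share a number had correlations of -0.09 to 0.23 and a median of 0.01 over 45 pairs, 4 of them over 0.1. Replicate 1 of each aged group did share the broad coverage, on 54.7% to 77.2% of the olfactory receptor genes, which such a median does not show. With the replicate block the counts were again 2 between ages of primary cells, 1 between gels and primary aged cells and 0 in the other 6 comparisons. Depth limits the short and sparse genes most: 7 libraries were at 0 for Hspb1, where 1 read pair is worth 5.01 to 23.5 scaled TPM.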

Other observations

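The cytosolic CCT chaperonin, which folds actin and tubulin, had summed levels of 88.4 to 163 scaled TPM in primary aged cells, against 197 to 235 in primary neonate cells, without overlap. The median difference over its 8 genes was -1.22 on the log2(scaled TPM + 1) scale, against 0.69 over all genes (0.00 without primary aged replicate 1), and 0 of the 8 were called. The 20 ER chaperone and unfolded protein response genes summed to 776 to 1365 scaled TPM in primary aged cells, against 494 to 623 in primary neonate cells, with a median of 1.06 and 0 of 20 called. Among them Hsp90b1, the ER member of the HSP90 family, had 117, 275.5 and 359 scaled TPM in primary aged cells, against 92.6, 50.4 and 70.9 in primary neonate cells, and a difference of 1.69 ± 0.56 (SE, limma adjusted p = 0.12), or 2.19 without the 3 broad libraries (limma adjusted p = 0.012). It was named after its values were seen. Sums of further lists were also wholly higher in primary aged than in primary neonate cells. These were other J-domain proteins (328 to 574 against 160 to 264) and HSP90 paralogs and cochaperones (700 to 1249 against 602 to 651). Mitochondrial chaperones and proteases did the same (163 to 188 against 127 to 149). The lists share genes, such as Hsp90b1 in both the ER and the HSP90 lists, so their sums are not separate results. How often sums of other gene sets were wholly higher was not counted. The sums of other HSP70 and HSP110 genes, other small heat shock proteins, nucleotide exchange factors and heat shock factors overlapped.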
